A study of Mus musculus with 8 samples.

Results

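Antigen receptors are built from gene segments. B cells join variable and joining segments of the immunoglobulin heavy chain (Igh) and of a kappa (Igk) or lambda (Igl) light chain to constant regions, and secrete the product as antibody after they become plasma cells. T cells assemble alpha (Tra) and beta (Trb) chains, or gamma (Trg) and delta (Trd) chains, in the same way. Each mature B or T cell carries its own combination, so RNA from a segment can point to a cell type and to the receptors in use, without proving either.

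The probe sets described here are all those of the array that GEO's annotation maps to an immunoglobulin or T cell receptor variable, joining or constant segment, or to Jchain, the gene of the small chain that links IgM and IgA antibodies into multimers. They number 64 of 22626 probe sets without controls, and the rule that chose them reads their symbols and no measured value. Of these, 51 were immunoglobulin (23 Igh, 24 Igk, 3 Igl and 1 Jchain) and 13 were T cell receptor (6 Tra, 2 Trb and 5 Trg). The arrays came from lymph node cells of B10.BR mice, an inbred strain, sorted by flow cytometry into a population that the labels do not name. There were 3 arrays of naive mice, 3 arrays of mice 7 days after immunization and 2 arrays of mice 28 days after immunization, with no immunogen, age or sex given. Nothing in the labels tells if replicates were different animals, so p-values measure only the spread between these arrays, whose small number limits how precise any value is.

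The array saw a small part of each locus. The 64 probe sets carried 34 segment symbols, all of which matched a RefSeq gene of the GRCm38.p6 table. They named 17 kappa variable segments, where RefSeq lists 102, and 2 heavy chain variable segments of 120. They named 2 alpha variable segments of 114, 2 beta variable segments of 22 and 3 gamma variable segments of 7. No symbol of the delta chain, of IgD, of IgE, of an IgG other than IgG3 or of a T cell receptor constant region was among them. Symbols of this kind rest on old antibody and receptor sequences: 14 probe sets carried several symbols, 11 carried Ighm alone and 5 carried Trav9d-3 alone, and these differed widely among themselves. Probe sets of near-identical segments may also share targets. Each is therefore named by its symbol and its probe set, and members of 1 chain are not independent measurements.

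All values are log2 of the deposited ratio, whose scaling no source states. The values read as if each probe set was set relative to its own 8-array median, or to a shared minimum where the median lay below it. On that reading a value of 0 is that median or minimum. Values of different probe sets cannot be compared as levels. The tests covered probe sets that reached a ratio of 1 or more in 2 or more arrays, which kept 13042 of 22626 and 36 of the 64 members (30 immunoglobulin and 6 T cell receptor). A call is a limma adjusted p under 0.05 over the 13042. In sorted bulk samples, fewer cells of a type and less RNA per cell cannot be told apart. Nor do the arrays differ by group alone. The hybridisation spike-ins, bacterial transcripts added to every sample, had a median log2 ratio of -1.16, 0.85 and 0.66 for naive replicates 1, 2 and 3, of -1.70 to -1.03 for day 7, and of 1.41 and 0.64 for day 28. Naive replicate 1 thus lay with the day 7 arrays (low spike-in) and naive replicates 2 and 3 with the day 28 arrays (high spike-in). Differences within each set are given beside the results, as values over 1 to 3 arrays a side with no test.

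The members moved about as much as the probe sets of the whole table. Over the 8 arrays, 34 of the 64 had a range under 1 on the log2 scale, as had 11084 of all 22626 probe sets, and 18 had a range of at least 2, as had 6010 of all. Those 18 were 5 kappa and 2 lambda probe sets, Ighv14-2, 5 of the heavy chain constant regions Ighm and Ighg3, Jchain, 3 of Trav9d-3 and 1 of Trbv1. The heat map of all members shows these as isolated rows.

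**Figure D1:**
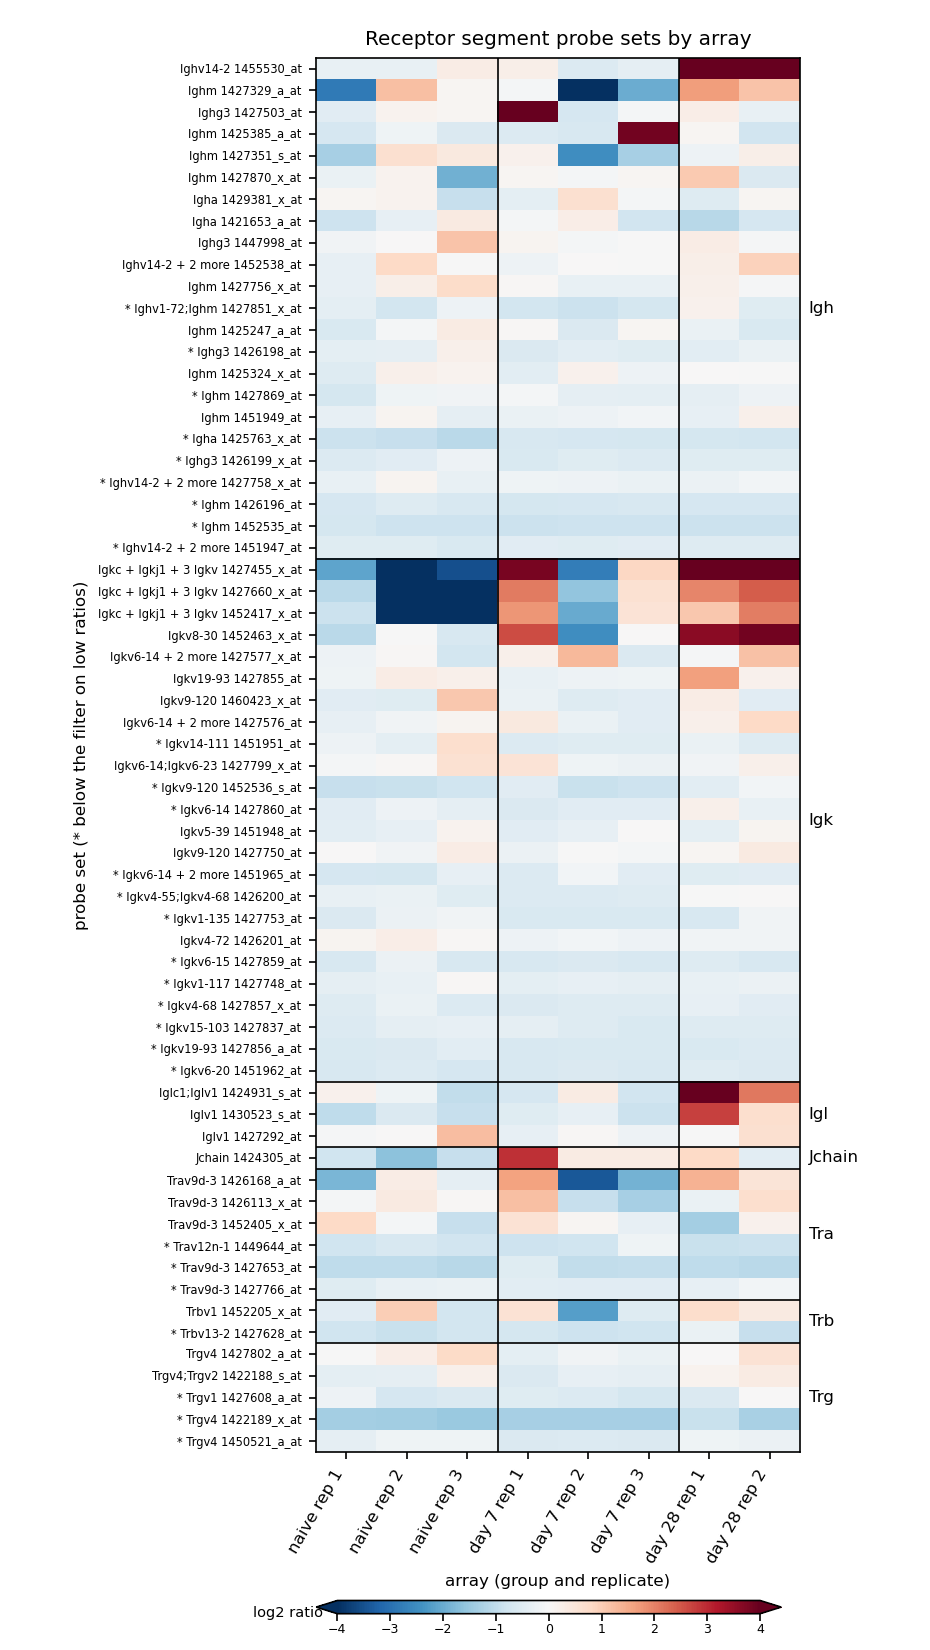
Heat map of the log2 ratio of all 64 probe sets (rows, by locus and then by range) on the 8 arrays (columns, by group and replicate). Colours are capped at -4 and 4, and an asterisk marks the 28 probe sets not tested. The rows that stand out are those of Igkc, Igkv8-30, Ighv14-2, Iglc1 and single arrays of Ighg3 and Ighm.

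The kappa light chain, which most mouse antibodies carry, gave the widest ranges of all members. Its 3 probe sets with the constant region symbol Igkc also list Igkj1, Igkv6-23, Igkv4-53 and Igkv8-30. The first, 1427455_x_at, had log2 ratios of -2.11, -4.01 and -3.53 in naive cells, 3.79, -2.78 and 0.82 in day 7 cells, and 5.25 and 5.13 in day 28 cells. Both day 28 arrays lay above all others, the naive arrays lay low, and the day 7 arrays spread over most of the scale. The second, 1427660_x_at, had -1.06, -4.46 and -4.46 in naive cells, 2.08, -1.56 and 0.61 in day 7 cells, and 1.96 and 2.41 in day 28 cells. The third, 1452417_x_at, had -0.87, -4.38 and -4.38 in naive cells, 1.76, -2.02 and 0.54 in day 7 cells, and 1.07 and 2.05 in day 28 cells. In both, naive replicates 2 and 3 had nearly the same low value, and day 7 replicate 1 reached the day 28 values.

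At day 28 these kappa probe sets were far above naive, but none passed the test over the whole table. The log2 difference of 1427455_x_at was 8.41 with an SE of 1.61 (limma adjusted p = 0.143, 2 arrays against 3). It was 5.51 ± 1.28 for 1427660_x_at (adjusted p = 0.266) and 4.77 ± 1.34 for 1452417_x_at (adjusted p = 0.453). In all 3 the day 28 arrays lay above every naive array, as they did for 6.59% of all probe sets. Within the high spike-in arrays the differences of day 28 minus naive were 8.96, 6.65 and 5.94. Without day 7 replicate 2, whose spread enters the shared error, 1427455_x_at had an adjusted p = 0.0408. At day 7 the groups overlapped for all 3, with log2 differences from naive of 3.83 ± 1.44, 3.70 ± 1.14 and 3.30 ± 1.20 (adjusted p = 0.273, 0.190 and 0.259, 3 arrays each). Within the low spike-in arrays, day 7 minus naive replicate 1 came to 2.72, 1.44 and 0.96. Without naive replicate 1, 2 of the 3 passed at day 7, 1427660_x_at with 4.83 (adjusted p = 0.0204) and 1452417_x_at with 4.47 (adjusted p = 0.0307). That fit called 1727 of the 13042 probe sets tested at day 7, where the fit of all arrays called 152. Passing it thus does not set the 2 apart from the whole table.

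A further kappa probe set, Igkv8-30 (1452463_x_at), is described because of its values. It had log2 ratios of -1.07, -0.03 and -0.63 in naive cells, 2.60, -2.47 and 0.03 in day 7 cells, and 3.62 and 3.87 in day 28 cells. The day 28 arrays were the highest and day 7 replicates 1 and 2 stood at opposite ends of the day 7 values. Day 28 minus naive was 4.32 ± 1.23 (adjusted p = 0.464) and day 28 minus day 7 was 3.69 ± 1.23 (adjusted p = 0.194). The other 20 probe sets that name only kappa variable segments showed little of this. Of all 21, 15 had a range under 1 and 9 were tested, and the median difference of day 28 minus naive over the 21 was 0.06.

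Lambda, the minor light chain of mice, was higher at day 28 by 2 of its 3 probe sets. The probe set of Iglc1 and Iglv1, 1424931_s_at, had 0.16, -0.18 and -0.99 in naive cells, -0.66, 0.32 and -0.77 in day 7 cells, and 4.09 and 2.10 in day 28 cells. The day 28 arrays lay clear of the other 6, which did not separate by group. Day 28 minus naive was 3.43 ± 0.66 (adjusted p = 0.143) and day 28 minus day 7 was 3.46 ± 0.66 (adjusted p = 0.0556). Neither passed, although the second passed with quantile normalization, median centring, array weights and without naive replicate 1. Of the 13042 probe sets tested in that comparison, array weights called 1377 and the fit without naive replicate 1 called 810. The main fit called 170, so passing those fits does not set the probe set apart from the whole table. Iglv1 by 1430523_s_at had -1.01, -0.59 and -0.92 in naive cells, -0.47, -0.34 and -0.86 in day 7 cells, and 2.72 and 0.67 in day 28 cells. Day 28 minus naive was 2.54 ± 0.57 (adjusted p = 0.236). Day 28 replicate 1 was the higher of its pair in both. The probe set 1430523_s_at met the filter only through the 2 day 28 arrays, the group where it was high, so its test is no separate support. Without day 28 replicate 2 its difference of day 28 minus naive was 3.56. The other Iglv1 probe set, 1427292_at, did not follow, with day 28 values of -0.01 and 0.64 inside the naive range of -0.05 to 1.25.

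**Figure D2:**
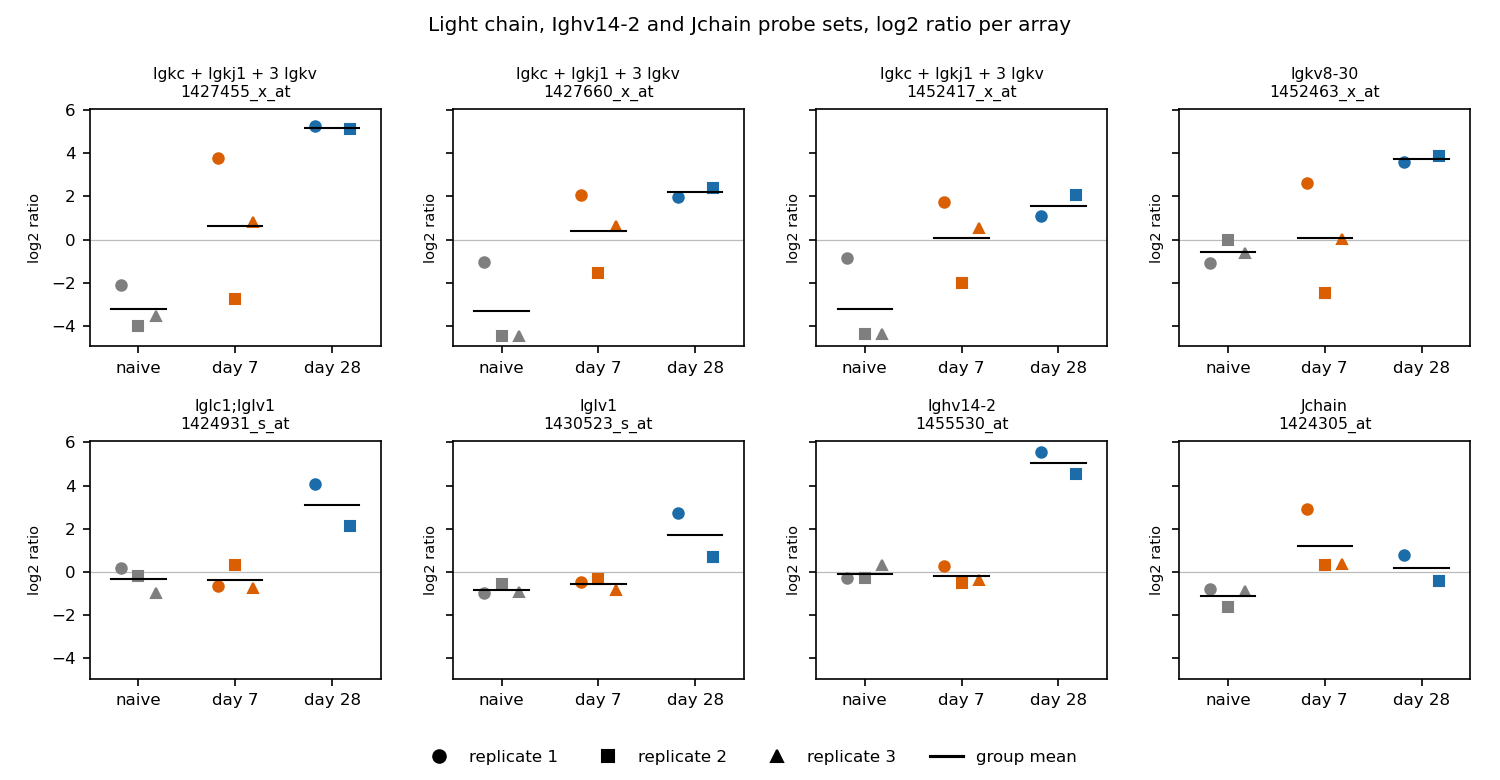
Log2 ratio per array (points, shaped by replicate) and group mean (line) of 4 kappa probe sets, 2 lambda probe sets, Ighv14-2 and Jchain at the naive, day 7 and day 28 stages. Ighv14-2 and lambda were high only on the 2 day 28 arrays of the 8, whereas kappa was also high on day 7 replicate 1, the array on which Jchain was highest (2.91).

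The single member called in any comparison was Ighv14-2 (1455530_at), a heavy chain variable segment. It had log2 ratios of -0.29, -0.30 and 0.31 in naive cells, 0.24, -0.54 and -0.37 in day 7 cells, and 5.55 and 4.51 in day 28 cells. Both day 28 arrays stood more than 4 log2 units above the other 6, among which naive and day 7 arrays mixed. It rose 34.9-fold at day 28 against naive (5.13 ± 0.44 on the log2 scale, limma adjusted p = 0.00838) and 38.1-fold against day 7 (5.25 ± 0.44, adjusted p = 0.00351). At day 7 against naive the difference was -0.12 ± 0.39 (adjusted p = 0.892). Within the high spike-in arrays day 28 minus naive was 5.03. The call against naive was lost without day 28 replicate 1 (4.61, with 1 day 28 array left). Calls over the whole table also fell in that fit. It was lost too in a fit of only the 2 groups (adjusted p = 0.0936). The call against day 7 was lost with a term for the spike-in sets (4.95, adjusted p = 0.135). The fit of only the 2 groups against naive and the spike-in term against day 7 each called 0 of all 13042 probe sets tested. Those 2 losses are thus not particular to Ighv14-2. The 3 probe sets that list Ighv14-2 with Ighg3 and Ighm did not share this rise. The widest of them, 1452538_at, had 0.25 and 0.92 at day 28, against -0.33, 0.79 and -0.02 on the naive arrays, so the groups overlapped.

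Ighm encodes the heavy chain constant region of IgM, the isotype of naive B cells. Its 11 probe sets with that symbol alone ranged from 0.17 to 5.94 in their spread over the arrays. The widest, 1427329_a_at, had log2 ratios of -2.84, 1.20 and 0.09 in naive cells, -0.09, -4.26 and -1.98 in day 7 cells, and 1.68 and 1.13 in day 28 cells. Low values fell on naive replicate 1 and day 7 replicates 2 and 3, and day 28 lay above day 7 but not above naive replicate 2. Day 28 minus day 7 was 3.52 ± 1.40 (adjusted p = 0.265) and day 28 minus naive 1.92 ± 1.40 (adjusted p = 0.993). The probe set 1427351_s_at was low on the same 3 arrays, with -1.34, 0.63 and 0.39 in naive cells, 0.18, -2.49 and -1.34 in day 7 cells, and -0.21 and 0.22 in day 28 cells. Others stood apart on 1 or 2 arrays. Ighm by 1425385_a_at had 3.86 on day 7 replicate 3, and the 7 other arrays lay between -0.76 and 0.09, and by 1427870_x_at it had 1.04 on day 28 replicate 1 and -1.93 on naive replicate 3. The remaining 7 had ranges between 0.17 and 1.04.

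No probe set of IgG3 or IgA, the only switched isotypes among the symbols, passed the test. Of 4 Ighg3 probe sets, 1427503_at had 4.42 on day 7 replicate 1, and the 7 other arrays lay between -0.69 and 0.28. Its difference of day 7 minus naive, 1.31 ± 1.19 (adjusted p = 0.610), thus rests on 1 array. The other 3 Ighg3 probe sets and the 3 of Igha had ranges between 0.42 and 1.57 over the 8 arrays. Among them Igha by 1425763_x_at, not tested, lay above every naive array at day 7 (by 0.28 in the mean) and at day 28 (by 0.25). Of the 18 heavy chain constant probe sets, 12 were tested and 0 passed limma in any comparison. At an unadjusted p under 0.05 there were 0 in either direction at day 7 and at day 28 against naive, and 1 higher and 0 lower at day 28 against day 7.

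Jchain (1424305_at, gene ID 16069) is a gene of antibody-secreting cells. It had log2 ratios of -0.81, -1.63 and -0.92 in naive cells, 2.91, 0.32 and 0.34 in day 7 cells, and 0.79 and -0.41 in day 28 cells. All day 7 arrays lay above all naive arrays, and so did both day 28 arrays, with day 7 replicate 1 far above the rest. Day 7 minus naive was 2.31 ± 0.73 (4.96-fold, adjusted p = 0.196) and day 28 minus naive 1.31 ± 0.82 (adjusted p = 0.955), neither past the threshold. Within the low spike-in arrays day 7 minus naive replicate 1 was 2.0. Pou2af1, the B cell coactivator that works with factors bound at octamer motifs, is the gene of the antibody secretion list that passed at day 7 (2.77 ± 0.45, adjusted p = 0.0401). Outside day 7 it reached a ratio of 1 only on day 28 replicate 2 (0.27). It thus met the filter through the group where it was high, and its test is no separate support. Because of that call the Jchain promoter was read for the octamer. The 250 bases before its RefSeq start (chr5:88527898-88528147, GRCm38.p6, minus strand, from a strain other than B10.BR) run as follows, with no capitals because neither motif searched was found.
Jchain: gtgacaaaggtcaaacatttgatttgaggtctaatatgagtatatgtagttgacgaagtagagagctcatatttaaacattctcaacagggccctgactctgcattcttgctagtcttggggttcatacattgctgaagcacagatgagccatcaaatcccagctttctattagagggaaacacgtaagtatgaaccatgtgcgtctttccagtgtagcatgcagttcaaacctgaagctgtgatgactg
The octamer ATGCAAAT, on either strand as ATTTGCAT, is in 1.60% of 32851 RefSeq promoter windows of this length. The core GAGGAA (or TTCCTC) of sites bound by PU.1, a factor of B and myeloid cells, is in 23.3%. No match says only that these letters are not in this window.

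T cell receptor probe sets did not pass in any comparison. Of the 13, 6 were tested and 0 passed limma, and at an unadjusted p under 0.05 there were 0 in either direction in each comparison. The widest was Trav9d-3 by 1426168_a_at, an alpha chain variable segment symbol. It had log2 ratios of -1.83, 0.29 and -0.36 in naive cells, 1.62, -3.38 and -1.89 in day 7 cells, and 1.39 and 0.51 in day 28 cells. Low values fell on naive replicate 1 and day 7 replicates 2 and 3, the arrays on which Ighm 1427329_a_at and 1427351_s_at were also low. Day 28 lay above naive (1.59 ± 1.34, adjusted p = 0.998) and overlapped day 7 (2.17 ± 1.34, adjusted p = 0.470). The Ighm and Trav9d-3 values set side by side in the plot of these probe sets share arrays and spike-in sets, and their relation was not tested.

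The other 2 alpha chain probe sets tested followed it in part or not at all. Trav9d-3 by 1426113_x_at had -0.06, 0.36 and 0.06 in naive cells, 1.22, -0.91 and -1.31 in day 7 cells, and -0.27 and 0.69 in day 28 cells. By 1452405_x_at it had 0.79, -0.08 and -0.92 in naive cells, 0.56, 0.08 and -0.32 in day 7 cells, and -1.35 and 0.16 in day 28 cells. In both the groups overlapped. The first, like 1426168_a_at, was highest on day 7 replicate 1 and lowest on day 7 replicates 2 and 3, and the second was lowest on day 28 replicate 1. The remaining 3 alpha probe sets, Trav12n-1 and 2 of Trav9d-3, were not tested and ranged by 0.35 to 0.72.

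For the beta chain, Trbv1 (1452205_x_at) had -0.46, 0.99 and -0.75 in naive cells, 0.58, -2.19 and -0.53 in day 7 cells, and 0.69 and 0.35 in day 28 cells. Its low value on day 7 replicate 2 was the lowest of the 8, and day 28 overlapped both other groups (day 28 minus day 7 1.23 ± 0.82, adjusted p = 0.503). Trbv13-2 (1427628_at) was not tested and stayed between -0.92 and -0.28. The gamma chain, carried by a minor subset of T cells, moved little. Of its 5 probe sets, 4 had day 28 arrays above all day 7 arrays, beside 13.5% of all probe sets, with differences of 0.24 to 0.66 on the log2 scale. Among these, Trgv4 with Trgv2 (1422188_s_at) had 0.13 and 0.34 at day 28, against -0.56, -0.33 and -0.36 at day 7. Trgv4 by 1427802_a_at had 0.00 and 0.57 at day 28, against -0.38, -0.14 and -0.28 at day 7.

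**Figure D3:**
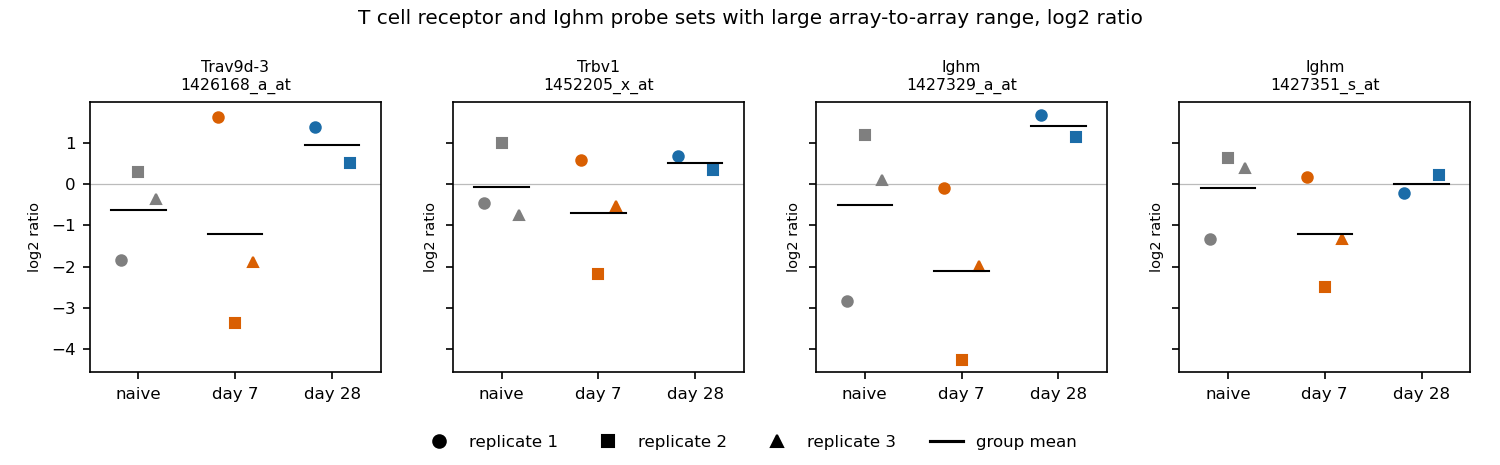
Log2 ratio per array (points, shaped by replicate) and group mean (line) of Trav9d-3 1426168_a_at, Trbv1 1452205_x_at, Ighm 1427329_a_at and Ighm 1427351_s_at at the naive, day 7 and day 28 stages. The receptor probe sets are the widest of their loci and the Ighm ones were picked because day 7 replicate 2 is their lowest array. That array lies between -4.26 and -2.19 in all 4, and the day 28 arrays lie near or above 0.

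Day 7 against naive asks what differed 1 week into the response. Of 36 tested members limma called 0, where it called 1.17% of all probe sets tested. At an unadjusted p under 0.05, 4 were higher, the 3 Igkc probe sets and Jchain, and 0 were lower. Of all 13042 tested, 1618 were higher and 402 lower, so the members' share of higher ones is near that of the whole table. Over every member the median log2 difference was -0.08, beside 0.02 over all probe sets. It was -0.06 for the 51 immunoglobulin and -0.11 for the 13 T cell receptor probe sets. Day 7 arrays lay above all naive arrays for 5 of 64 members, beside 12.6% of all probe sets, and below them for 8, beside 8.05%. Apart from Jchain those 13 differed by less than 1 log2 unit, and the members' shares of 7.81% higher and 12.5% lower are not far from those of the whole table.

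Day 28 against naive asks what differed 4 weeks after immunization. Limma called 1 of 36 tested members, Ighv14-2, and 0.322% of all probe sets tested, while 7 members were higher and 0 lower at an unadjusted p under 0.05. Of all 13042 tested, 408 were higher and 419 lower. The 7 include Iglv1 1430523_s_at, which met the filter only through the day 28 arrays. The median log2 difference over every member was 0.08, beside -0.03 over all probe sets, with 0.07 for immunoglobulin and 0.11 for T cell receptor members. The day 28 arrays lay above all naive arrays for 14 of 64 members (21.9%), beside 6.59% of all probe sets. Of these, 9 differed by at least 1 log2 unit: the 3 Igkc probe sets, Igkv8-30, Iglc1 with Iglv1, Iglv1, Ighv14-2, Jchain and Trav9d-3 1426168_a_at. They lay below all naive arrays for 3 members, beside 11.8% of all probe sets, by 0.07 to 0.27.

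**Figure D4:**
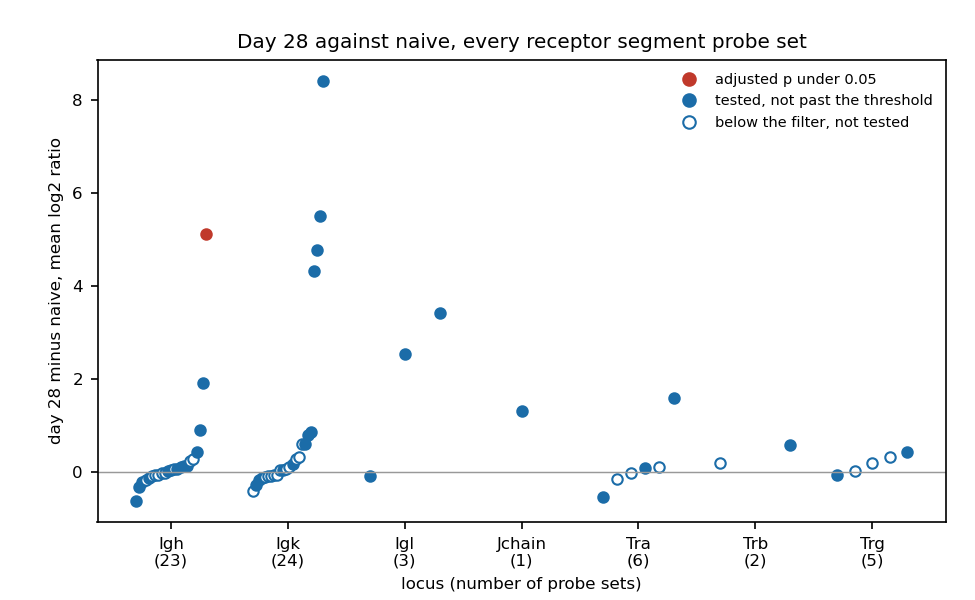
Difference of the mean log2 ratio, day 28 minus naive, for each of the 64 probe sets by locus, with the number of probe sets below each name. Ighv14-2, the filled red point at 5.13, was the only one of the 36 tested that passed the threshold, and the 4 highest kappa points, between 4.32 and 8.41, did not.

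Day 28 against day 7 compares the 2 stages after immunization, and shares its arrays with the comparisons above. Limma called 1 of 36 tested members, again Ighv14-2, and 1.30% of all probe sets tested. At an unadjusted p under 0.05, 7 members were higher and 0 lower. Of all 13042 tested, 452 were higher and 1703 lower. The 7 again include Iglv1 1430523_s_at, which met the filter only through the day 28 arrays. The median over every member was 0.19, beside -0.05 over all probe sets. The day 28 arrays lay above all day 7 arrays for 22 of 64 members (34.4%), beside 13.5% of all probe sets, and below them for 3, beside 29.7%. For 15 of the 22 the difference was under 1, from 0.07 to 0.66. The 7 others were Ighv14-2, Igkc by 1427455_x_at (4.58 ± 1.61, adjusted p = 0.215), Igkv8-30, Ighm by 1427329_a_at, both high lambda probe sets and Igkv19-93 by 1427855_at, which had 1.65 and 0.16 at day 28 and between -0.29 and -0.18 at day 7. The spike-in sets separate day 28 from day 7 fully, so the 2 cannot be told apart in this comparison except through the naive arrays.

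Genes that work with these receptors were counted by all their probe sets with 1 symbol. Of 24 probe sets of B cell receptor partners and B cell markers, 8 rose at day 28 against naive and 12 against day 7, with 0 lower in each and 0 called at day 7. Their median per array was 2.65 and 1.67 at day 28, against -0.41 to -0.14 on the 6 day 7 and naive arrays. Cd79b, which carries the B cell receptor's signal into the cell, had 6.61 and 5.85 at day 28, against -0.13, -0.09 and 0.63 on the naive arrays. On day 7 replicate 1, where the Igkc median was 2.08, that of the B cell list was -0.17 and Cd79b had 0.09. The plasma cell and antibody secretion list (20 probe sets) had a median of 0.00, -0.13 and 0.00 on the day 7 arrays, against -0.27, -0.64 and -0.82 on the naive arrays, and of -0.27 and -0.11 at day 28. The day 7 medians thus lay above the naive ones, with a median difference of 0.36 over the list and of 0.09 within the low spike-in arrays. It rose at day 7 by 1 probe set, Pou2af1, and had 0 called at day 28 against either group. Pou2af1 met the filter through the day 7 arrays, where it was high. What these markers contribute to the kappa, lambda and Ighv14-2 values was not tested.

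T cell receptor complex and coreceptor genes (19 probe sets) had a median between -0.74 and 0.47 over the 8 arrays, lowest on day 7 replicate 2, where Trav9d-3 1426168_a_at and Trbv1 1452205_x_at were lowest too. Of these, 0 passed at day 7, 1 rose at day 28 against naive and 2 against day 7. They were Cd8b1 (3.70 ± 0.35 against naive, adjusted p = 0.00936) and, against day 7, also Cd8a (3.22 ± 0.55, adjusted p = 0.0433), the chains of the CD8 coreceptor. Cd8b1 met the filter only through the day 28 arrays, the group where it was high, so its test is no separate support. Lists of receptor rearrangement and class switching (22 probe sets) and of Fc receptors (12 probe sets) had 0 called in each comparison. The gamma delta list (6 probe sets) had 1 called, at day 28 against day 7, Blk, a kinase that is also in the B cell list. Blk too met the filter only through the day 28 arrays. The NK cell list had 1 of 13 called, Nkg7 at day 7, which met the filter through the day 7 arrays, where it was high. The monocyte, neutrophil and erythroid lists had 0 called. The neutrophil list had a median of 1.12 on day 7 replicate 3, the array of the high Ighm 1425385_a_at value, with the 7 other arrays between -0.69 and -0.45. What those cells contribute to that value was not tested.

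**Figure D5:**
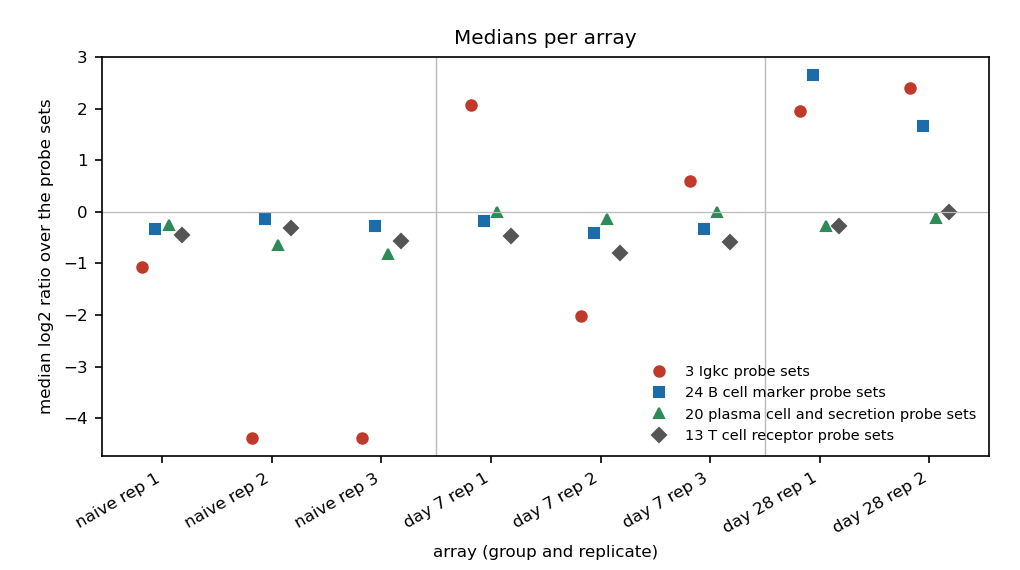
Median log2 ratio per array over the 3 Igkc, 24 B cell marker, 20 plasma cell and secretion and 13 T cell receptor probe sets. The B cell markers were high on the day 28 arrays (2.65 and 1.67), whereas the Igkc median was also high on day 7 replicate 1 (2.08) and lowest on naive replicates 2 and 3 (-4.38 on each).

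One neighbour of the kappa members was left out by the symbol rule. Of 5 probe sets annotated only as Igk or Igk-V21, 4 were below 0 on every array and below the filter, and Igk by 1452557_a_at had -0.18, -0.20 and -1.03 in naive cells, 1.82, -0.22 and 0.16 in day 7 cells, and 5.64 and 5.87 in day 28 cells. It was picked after its values were seen. Its day 28 arrays were the highest and day 7 replicate 1 the next, as in Igkv8-30.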

How the data were processed

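GCRMA is the tool in the submitters' processing notes (no version). The deposited values are linear ratios. No source states how they were scaled, and the table itself shows that the median over the 8 arrays is 1 (within 0.0015) for 47.9% of probe sets and never higher. Ratios run from 0.0153 to 117, with 0 missing. From them log2 ratios were taken, and 64 control probe sets were set aside. Of the 22626 others, 20380 carried 1 gene symbol, 691 several and 1555 none in GEO's platform annotation. limma 3.58.1 in R 4.3.3 was fitted over all 13042 probe sets kept, with 1 mean per group, 8 arrays, empirical Bayes moderation and two-sided Benjamini-Hochberg adjustment, and was tested on simulated data. SE is limma's moderated standard error.

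Probe sets were named where they passed, carried a constant region or Jchain, or had 1 of the 2 widest ranges of their locus. Members of little range are given by range. Igkv8-30, Igkv19-93, Iglv1 1427292_at and Trav9d-3 1452405_x_at were added after their values were seen. The members and gene lists were chosen with earlier results of these data known. Replicate numbers were not used as a block: deviations of same-numbered arrays correlated between -0.36 and 0.17.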

Additional observations from a re-analysis of the deposited data

How the results depend on the processing

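The alternatives were 9 other settings and leaving out each of the 8 arrays. Of 51 recomputed counts of called members, 39 equalled the reported ones. At day 7 against naive, 2 were called with array weights in place of 0. Over all 13042 probe sets tested, array weights called 1442 at day 7, and leaving out naive replicate 1 called 1727, in place of 152. At day 28 against naive, 0 were called in a fit of only the 2 groups in place of 1, and that fit called 0 of all probe sets tested. At day 28 against day 7, in place of 1, there were 2 with quantile normalization, 2 with median centring, 3 with array weights and 0 with the spike-in term. Over all probe sets tested, array weights called 1377 and the spike-in term 0 in that comparison, in place of 170. With an array left out, the counts ran from 0 to 2 at day 7 (2 without naive replicate 1), from 0 to 2 at day 28 against naive (0 without day 28 replicate 1, 2 without day 28 replicate 2 or day 7 replicate 2) and from 1 to 3 at day 28 against day 7 (2 without naive replicate 1, 3 without day 28 replicate 2). With 1 day 28 array left, it was taken to vary like the other groups. Array weights were estimated gene by gene. Ighv14-2 passed in 15 of 17 alternatives against naive (adjusted p from 0.00556 to 0.0936) and 16 of 17 against day 7 (0.000557 to 0.135). With the replicate block the counts were 0, 1 and 1, so no call changed, while calls over all probe sets fell to 16, 9 and 15, in place of 152, 42 and 170.

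Medians over members were small and followed the scaling. The immunoglobulin median was -0.16 with quantile normalization and 0.11 with the spike-in term at day 7, and 0.27 with quantile normalization, 0.25 with median centring and -0.056 with the spike-in term at day 28 against day 7. The T cell receptor median was -0.31 at day 7 and 0.47 at day 28 against day 7 with quantile normalization. With an array left out it ran from -0.17 to 0.054 at day 7, and the immunoglobulin median at day 28 against naive ran from 0.013 to 0.19. The causes were not tested. Ratios carry no level, so signal over background cannot be judged for any member, and 28 members lay below the filter.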
